A study of Gallus gallus with 300 samples.

Results

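Proteasome and chaperone genes were described in single cells of the utricle, one of the balance organs of the chicken inner ear. The members were all gene symbols of the proteasome subunit and assembly families (PSMA to PSMG), the heat shock protein families HSPA, HSPB, HSPD, HSPE and HSPH, the J-domain families DNAJA, DNAJB and DNAJC, and the CCT chaperonin, with at least 10 counts per 1000000 (CPM) in at least 5 cells. Of such symbols in the files 100 passed and 3 did not, and 10730 of 13631 genes in all passed the same limit. They were 38 proteasome, 17 HSP, 38 DNAJ and 7 CCT genes. At the edge of the rule, HSPB1 and PSMD11 were just inside with 5 cells each, and HSPB8 with 2 cells, HSPB7 with 1 cell and DNAJC5G with 0 cells were outside. Every cell came from sensory epithelia of wild-type chickens at posthatch day 7, with no treatment named. Several epithelia (4 to 8) were pooled per experiment, dissociated with enzymes, and viable cells were sorted singly into plates and profiled by Smart-Seq2, a full-length RNA sequencing method. The 300 cells lie on 5 plates, and the labels tie no animal and no sort batch to a cell.

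The proteasome is a barrel-shaped protease in which PSMA and PSMB proteins form the core, PSMC proteins the ATPase ring and PSMD proteins the rest of the regulatory cap that takes up ubiquitin-tagged proteins. HSPA proteins bind unfolded stretches of protein and are driven by J-domain (DNAJ) partners, while CCT proteins form a ring-shaped chaperonin that folds actin and tubulin. Hair cells, the mechanosensory cells, carry a bundle of actin-filled stereocilia, and supporting cells surround them. OCM encodes the calcium-binding protein oncomodulin, ATOH1 is the transcription factor needed to make a hair cell, and GJB6 is a gap junction gene of supporting cells.

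Cells were kept with at least 1000 genes and 50000 counts, which left out 24 of the 300 and kept 49, 50, 61, 63 and 53 on plates 2 to 6, with 66490 to 1234010 counts per kept cell. Clusters made without the members or the markers were named from fixed markers, and gave 34, 38, 33, 41 and 38 hair cell-like cells on the plates and 92 supporting cell-like cells in all, of which 89 had at least 1000 CPM of GJB6. Of 16 hair cell markers, 10 to 12 were detected in each of the 6 hair cell-like clusters, and of 13 supporting cell markers, 10 in both supporting cell-like clusters. The summed hair cell markers had a median of 16604 CPM in hair cell-like cells, against 513 CPM in GJB6-high cells, where POU4F3, TMC2, MYO15A and FSCN2 were at 0. The summed supporting cell markers had a median of 589 CPM in hair cell-like cells, against 38859 CPM in GJB6-high cells, and 13 hair cell-like cells reached 1000 CPM of GJB6. That list holds GJB6 itself, with a median of 23292 CPM in the 92 supporting cell-like cells. Since GJB6 selected the GJB6-high cells and both lists named the clusters, these levels describe the classes and do not test them. Depth differed between the classes. Medians were 3458 genes and 432176 counts per hair cell-like cell, and 1792 genes and 323509 counts per GJB6-high cell. Values are mean CPM ± SD over plate means (n = 5 plates). No difference was tested, since all cells form 1 group by their labels.

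Proteasome and chaperone transcripts took up 4.11% of all counts in hair cell-like cells and 2.34% in GJB6-high supporting cell-like cells. All 4 families had a higher summed level in hair cell-like cells on every plate. The proteasome sum was 8469 ± 684 CPM in hair cell-like cells, against 5267 ± 737 CPM in GJB6-high cells. The HSP sum was 18258 ± 2430 against 10786 ± 1198 CPM, and the CCT sum was 5123 ± 493 against 2357 ± 237.8 CPM. For DNAJ genes the sums were 6917 ± 749 and 4306 ± 912 CPM. These are shares of each cell's counts, so less RNA of a gene and more RNA of others cannot be told apart.

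Genes were set against a fold rule, a log2 ratio of at least 1 in size with the same sign on every plate. By this rule 26 of the 100 members were higher in hair cell-like cells, where 19% of all measured genes were. Only DNAJC3 among the members was lower, where 8.91% of all measured genes were. Whatever the size of the ratio, 39 of 100 members were higher and 2 lower on every plate, where 21.7% and 9.94% of all measured genes were. The median log2 ratio was 0.72 over all members and 0.12 over all measured genes. It was 1.15 ± 0.42 (SD of 5 plate medians) for CCT, 1.13 ± 0.68 for HSP, 0.64 ± 0.28 for the proteasome and 0.29 ± 0.61 for DNAJ genes. The 4 family medians were above 0 on every plate, but so was the median of all measured genes, which lay between 0.16 and 0.77 on single plates. The CCT median lay above the proteasome median on each plate, and the HSP median lay between 0.35 and 2.16 on single plates. Leaving out 1 plate at a time gave 27 to 33 higher members, and 24 to 26 of the original 26 passed each time. In the same settings the share of all measured genes past the rule was 21.1 to 23.02%.

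**Figure D1:**
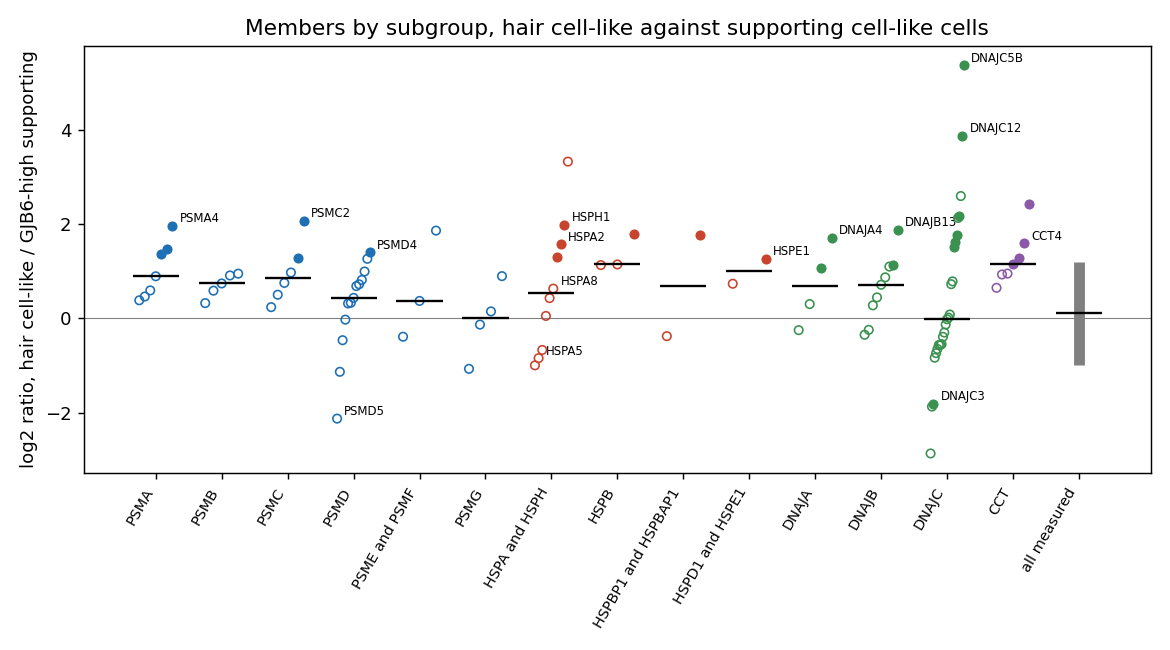
Each point is 1 of the 100 members, placed by subgroup (x axis) and by its log2 ratio of plate-averaged CPM between hair cell-like and GJB6-high supporting cell-like cells (y axis). Filled points passed the fold rule, black lines are medians, and the grey bar spans the quartiles of all 10730 measured genes. PSMA, PSMB, PSMC and CCT points all lie above 0, while DNAJC runs from -2.87 to 5.38.

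Every measured gene of the core particle had a ratio above 0. Of all 10730 measured genes, 5677 did, so counts of ratios above 0, here and below, are to be read beside that share. Counts of genes past the fold rule in a subgroup are to be read beside the 19% higher and 8.91% lower of all measured genes. All 7 PSMA genes, which encode the outer rings, had a ratio above 0 with a median of 0.89, and 3 of them passed the fold rule. PSMA4 had plate means of 859.6, 1006, 997, 843 and 938 CPM in hair cell-like cells on plates 2 to 6, and 155.8, 140.03, 122.6, 302 and 466 CPM in GJB6-high cells. The groups did not overlap, and the log2 ratio was 1.96. PSMA4 reached 10 CPM in 94.6% of hair cell-like cells (90.2 to 97.4%, exact binomial interval) and in 46.1% of GJB6-high cells (35.4 to 56.96%). Such intervals, here and below, take cells as independent, though cells share plates and pooled epithelia, and they do not test the classes. PSMA3 (396 ± 80.2 against 141.6 ± 59.3 CPM, log2 ratio 1.48) and PSMA1 (365 ± 68.5 against 140.1 ± 49.4 CPM, 1.38) were the others. The 5 PSMB genes, of the inner rings, were all above 0 as well, but between 0.32 and 0.95, and none passed. They were PSMB1, PSMB2, PSMB3, PSMB4 and PSMB7. No other PSMB symbol was listed in these data, so the catalytic subunits were covered only in part. PSMB7, a catalytic subunit gene, had 385 ± 44.7 against 255.9 ± 59.5 CPM, and was higher on every plate.

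In the regulatory cap the ATPase genes and the other subunits differed. All 6 symbols of the PSMC group had a ratio above 0 with a median of 0.86. One of them, PSMC3IP, is known in mammals as a meiotic recombination factor and is not a proteasome subunit. PSMC2 had 474, 482, 353, 473 and 475 CPM on the plates in hair cell-like cells, and 173.2, 32.3, 137.4, 162.7 and 27.2 CPM in GJB6-high cells. Its groups were apart on every plate, with a log2 ratio of 2.07. PSMC6 passed too (1.28), whereas PSMC3 (460.3 ± 75.3 against 325 ± 63.8 CPM) was higher on 4 plates and did not. The 13 PSMD genes had a median of 0.44 ± 0.56 (SD of 5 plate medians). Of these genes, 9 had a ratio above 0, and 1 passed. That gene was PSMD4, a ubiquitin receptor of the cap, with 147.5, 150.7, 160.2, 156.7 and 108.4 CPM against 61.6, 34.99, 59.1, 57.4 and 57.7 CPM. PSMD5, an assembly chaperone of the cap in mammals, stood at 50.7 ± 18.6 CPM in hair cell-like cells and 225.2 ± 140 CPM in the others, with a log2 ratio of -2.13. It was lower on 4 of 5 plates, and so did not pass. PSMD1, a scaffold of the cap, had 218.2 ± 39.3 and 222.3 ± 101.1 CPM.

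No activator or assembly factor of the core passed the fold rule, among the 3 genes of the PSME and PSMF group and the 4 of PSMG. PSME3, an alternative activator, had 303 ± 66.97 against 233.7 ± 106.3 CPM, and the inhibitor gene PSMF1 205.2 ± 54.2 against 269.2 ± 136.1 CPM. The PSMG genes, whose products help to assemble the core, had a median log2 ratio of 0.01. PSMG1 had 77.6 ± 7.55 against 85.2 ± 54.7 CPM and PSMG2 93.5 ± 28.6 against 49.7 ± 11.5 CPM. Of these, PSMG2 was higher on every plate.

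All 7 measured CCT genes had a ratio above 0, and 4 of them passed the fold rule. CCT4 had 1434, 1345, 919.9, 1349 and 1462 CPM on the plates in hair cell-like cells, and 285.999, 492, 657, 351 and 368 CPM in GJB6-high cells. All 5 hair cell-like means lay above all 5 others, and the log2 ratio was 1.59. CCT6A had 987 ± 88.9 against 408 ± 122.8 CPM (1.27), and CCT7 521 ± 51.5 against 234.4 ± 123.1 CPM (1.15). CCT3 also passed, but at 14.8 ± 7.73 against 1.94 ± 4.25 CPM, and in 20.7% of hair cell-like cells (15.05 to 27.2%). The other genes, CCT2, CCT5 and CCT8, had ratios of 0.93, 0.65 and 0.95. TCP1, which encodes the remaining subunit of this ring and is not matched by the symbol rule, had 858 ± 144.4 against 436 ± 229.2 CPM, a ratio of 0.98 with the higher level in hair cell-like cells on every plate.

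Among HSP genes, 2 genes carried most of the reads, so that the sum largely follows them. HSPA8 accounted for 42.6% and HSPA2 for 38.1% of the HSP reads of hair cell-like cells, as shares of reads that are not adjusted for transcript length. HSPA2 had 6317, 6420.5, 5976, 9199 and 6710.2 CPM on the plates in hair cell-like cells, and 3784, 3040, 1667, 2056 and 1053 CPM in GJB6-high cells. The groups did not overlap, and the log2 ratio was 1.58. HSPA8, the constitutive cytosolic HSPA gene, had 8351, 7182, 6265, 9490.3 and 7590 CPM against 4822, 4861, 4931, 5489 and 4982 CPM. This is a ratio of 0.63, with every hair cell-like mean above every GJB6-high mean.

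Other HSP genes went in both directions. HSPH1, a nucleotide exchange factor for HSPA proteins, had 147.7 ± 61.4 against 36.5 ± 26.8 CPM (log2 ratio 1.99). HSPA4L, of the same exchange factor family, had 627 ± 174.7 against 253.8 ± 131.9 CPM (1.301). HSPE1, the co-chaperonin of mitochondria, had 196.3 ± 33.4 against 80.9 ± 24.3 CPM (1.27), and passed, while its partner HSPD1 had 206.3 ± 48.1 against 123.5 ± 119.04 CPM and did not. HSPBP1, a regulator of HSPA proteins, had 15.3 ± 3.94 against 3.80 ± 4.19 CPM. HSPB11, at 33.9 ± 10.4 against 9.07 ± 8.16 CPM, is known in mammals as a subunit of intraflagellar transport rather than as a chaperone. HSPB9 was detected in 50% of hair cell-like and 19.1% of GJB6-high cells, and its plate ratios ran from -1.15 to 3.86. The summed immediate early genes, a group induced by stimulation and stress, stood at 1573 ± 190.6 CPM in hair cell-like cells and 9254 ± 4000 CPM in GJB6-high cells, and their part in the HSP values was not tested.

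HSPA5 and DNAJC3, of the endoplasmic reticulum (ER), were lower in hair cell-like cells on every plate, against most other members. HSPA5, the HSPA protein of the ER lumen known as BiP, had 1006, 965, 1126, 1332 and 1555 CPM on the plates in hair cell-like cells, and 2255, 2046, 2378, 2042 and 2032 CPM in GJB6-high cells. All hair cell-like means lay below all others, and with a log2 ratio of -0.84 the gene missed the fold rule. DNAJC3, a partner of HSPA5 in mammals, had 297.8, 269.2, 316, 380.3 and 289.1 CPM against 665, 659, 1172, 1219 and 1741 CPM. It was lower on every plate, with a log2 ratio of -1.81. Of other J-domain genes of the ER, DNAJC1 (16.02 ± 5.09 against 61.4 ± 58.97 CPM), DNAJC10 (98.6 ± 22.2 against 121.7 ± 71.04 CPM), DNAJB9 and DNAJB11 did not have the same sign on all plates. DNAJB14, also of the ER in mammals, went the other way and passed the fold rule upwards (1.12). In a list of 23 further genes of ER folding and the unfolded protein response, 6 were lower and 2 higher by the fold rule, and the median was -0.53 ± 0.29. Among all measured genes 8.91% were lower and 19% higher. Protein disulfide isomerase genes led it, PDIA4 with 267.4 ± 38.4 against 1998 ± 486 CPM (log2 ratio -2.90) and P4HB with 236.5 ± 44.3 against 1219 ± 269.3 CPM (-2.36). The transcription factor gene XBP1 had 361 ± 30.6 against 834 ± 176.2 CPM (-1.20). ERP29, an ER protein related to the disulfide isomerases, was higher instead, at 474 ± 36.3 against 99.4 ± 32.9 CPM (2.24).

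DNAJ genes spread more widely than any other family here, and 10 of 38 passed the fold rule upwards, where 19% of all measured genes did. DNAJC5B, of the cysteine string protein group whose member DNAJC5 acts at synaptic vesicles in mammals, had 1490.4, 1232, 877, 837 and 325 CPM on plates 2 to 6 in hair cell-like cells. In GJB6-high cells the plate means were 45.5, 43.3, 19.5, 1.46 and 0.136 CPM. At 10 CPM it was detected in 95.7% of hair cell-like (91.6 to 98.1%) and in 8.99% of GJB6-high cells (3.96 to 16.9%), and its log2 ratio of 5.38 was the highest of the 100 members. Its level in hair cell-like cells differed 4.58-fold between plates 2 and 6. DNAJC5 itself was low in both classes, at 1.66 ± 1.89 and 18.5 ± 35.02 CPM.

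DNAJC12, which in mammals binds the aromatic amino acid hydroxylases, had 926.6, 806, 419.99, 531 and 339 CPM on the plates in hair cell-like cells, and 14.2, 131.97, 41.1, 14.5 and 0 CPM in GJB6-high cells. Its log2 ratio was 3.87, and it was detected at 10 CPM in 63.04% and 10.1% of cells. DNAJB13, known in mammals from the radial spokes of cilia, had 169.9 ± 25.7 against 45.2 ± 23.2 CPM (1.89). The cytosolic genes DNAJA4 (1029 ± 182.7 against 314 ± 156.4 CPM, 1.71) and DNAJA1 (1222 ± 110.8 against 586 ± 102.9 CPM, 1.06) passed, and DNAJA2 (0.30) and the mitochondrial DNAJA3 (-0.25) did not. DNAJC15, of the inner membrane of mitochondria, had 84.9 ± 13.4 against 26.8 ± 14.7 CPM (1.63). DNAJB14 (1.12), DNAJC17 (2.18), DNAJC24 (1.78) and DNAJC27 (1.51) completed the group, the last 3 of them below 37 CPM in both classes.

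**Figure D2:**
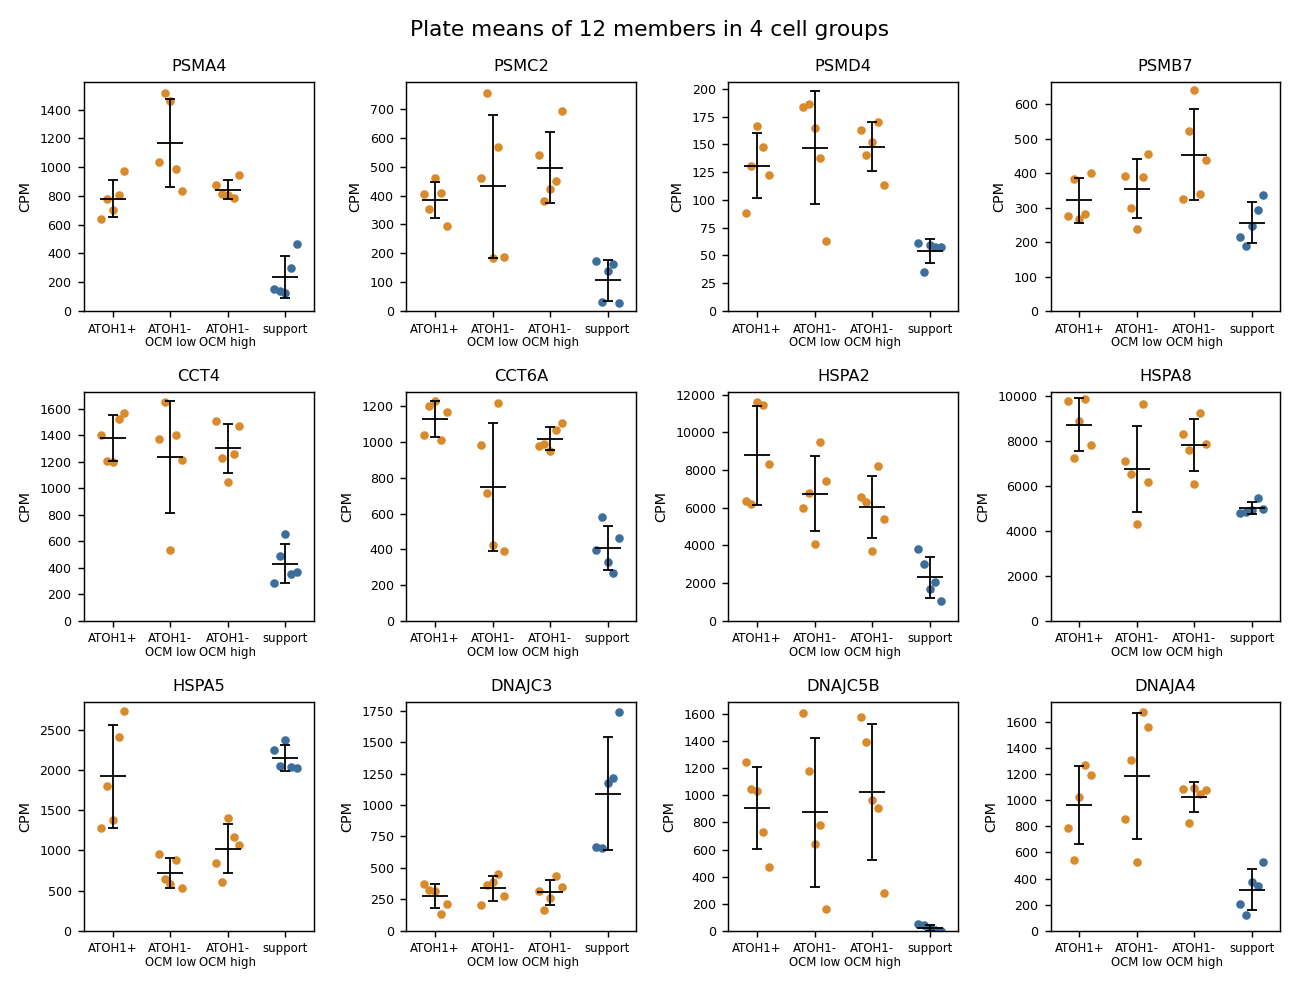
Points are plate means in CPM (y axes, from 0) of 12 members in ATOH1-positive, ATOH1-negative OCM-low and ATOH1-negative OCM-high hair cell-like cells (orange) and GJB6-high supporting cell-like cells (blue). Bars are the mean ± SD over 5 plates. PSMA4, PSMC2, CCT4, HSPA2, DNAJC5B and DNAJA4 are lower in supporting cell-like cells than in each hair cell-like group, DNAJC3 is higher there, and HSPA5 is high in ATOH1-positive and in supporting cell-like cells.

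Partner genes outside the members were set against the same fold rule, which 19% of all measured genes passed upwards and 8.91% downwards. Counts of these short lists are to be read beside those shares. Of 13 genes of HSP90 and its co-chaperones, 4 were higher and 2 lower by the fold rule, with a median of 0.58. HSP90AA1 had 9898 ± 1559 against 6633 ± 1984 CPM (0.58), the ER form HSP90B1 had 700.3 ± 53.7 against 2054 ± 296.2 CPM (-1.55), and FKBP5, a co-chaperone of steroid receptors, had 16.3 ± 11.4 against 155.7 ± 86.6 CPM (-3.18). The co-chaperone gene ST13 (171.1 ± 30.2 against 52.8 ± 49.1 CPM, 1.68) was higher. Of 19 ubiquitin and proteasome partners, 2 were higher and 1 was lower, with a median of 0.01. UBB, a polyubiquitin gene, had 3684 ± 546 against 4141 ± 636 CPM. Of 4 measured heat shock factor genes, HSF3 (61.5 ± 28.3 against 12.7 ± 15.2 CPM) and HSF5 (33.6 ± 16.4 against 0.85 ± 1.16 CPM) were higher. None of 9 nucleotide exchange and BAG genes and none of 8 genes of TCP1 and prefoldin passed.

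The number of genes per cell was then set beside these levels. The median number of members with a count was 61 in hair cell-like and 27 in GJB6-high cells, and 56 and 25 after every cell was thinned to 50000 counts. Over all hair cell-like cells, Spearman's rho between gene number and the summed CPM was 0.47 for HSP, 0.41 for CCT, 0.28 for DNAJ and 0.18 for proteasome genes. Over the 89 GJB6-high cells it was 0.25, 0.28, -0.05 and 0.10. These are descriptions across cells that share plates and depth. For single genes, the median rho over the members was 0.23 in hair cell-like cells, beside 0.17 over all measured genes. By family it was 0.32 for CCT, 0.25 for proteasome, 0.22 for DNAJ and 0.22 for HSP genes. In GJB6-high cells it was 0.32, 0.24, 0.17 and 0.20 in the same order. Single proteasome genes were thus not less tied to gene number than single HSP genes, unlike the sums.

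The families differed when cells were taken in steps of 1000 genes per cell. The mean HSP sum of hair cell-like cells was 10601 CPM from 1000 to under 2000 genes (27 cells), 15771 CPM from 2000 to under 3000 (38 cells), 20421 CPM from 3000 to under 4000 (89 cells) and 22700.1 CPM at 4000 or more (30 cells). In GJB6-high cells it was 9475, 12412 and 12529 CPM in the first 3 steps (50, 30 and 8 cells). The HSP sums of both classes were thus close in cells with few genes and apart in cells with many. Single HSP genes still differed in the lowest step, in opposite directions. With the hair cell-like mean given first, HSPA2 had 3610 against 1692 CPM there, and HSPA5 had 450.3 against 1908 CPM. In the lowest step HSPA8 alone stood at 4293 CPM in hair cell-like and at 4709 CPM in GJB6-high cells, and 8693 and 6166 CPM in the step from 3000 genes.

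The CCT sum followed the same course. It was 2640.5 against 2140.1 CPM in the lowest step, 4684 against 2360 CPM in the next, and 5879 against 3729 CPM in the step from 3000 genes. The proteasome sum in hair cell-like cells was within 8214 to 8608 CPM in all 4 steps, against 5246 to 5532 CPM in GJB6-high cells of the first 3. In the lowest step this pooled value joined OCM-high cells (at least 1000 CPM of OCM) and OCM-low cells. Their means were 11000.3 CPM in 10 and 6784 CPM in 17 cells. Of these OCM-high cells, single ones had 30472, 19341, 18225 and 12305.5 CPM, and the others 7549 CPM or less. In the next 3 steps the OCM-high means were 7832 to 8592 CPM and the OCM-low means 8467 to 8916 CPM. PSMA4 had 1181 against 220.6 CPM in the lowest step and 905 against 254.02 CPM in the step from 3000 genes. The DNAJ sum was 4907 against 4416 CPM in the lowest step and 7584 against 4336 CPM in the step from 3000 genes, and DNAJC5B had 621 against 9.32 CPM and 1055 against 94.1 CPM.

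**Figure D3:**
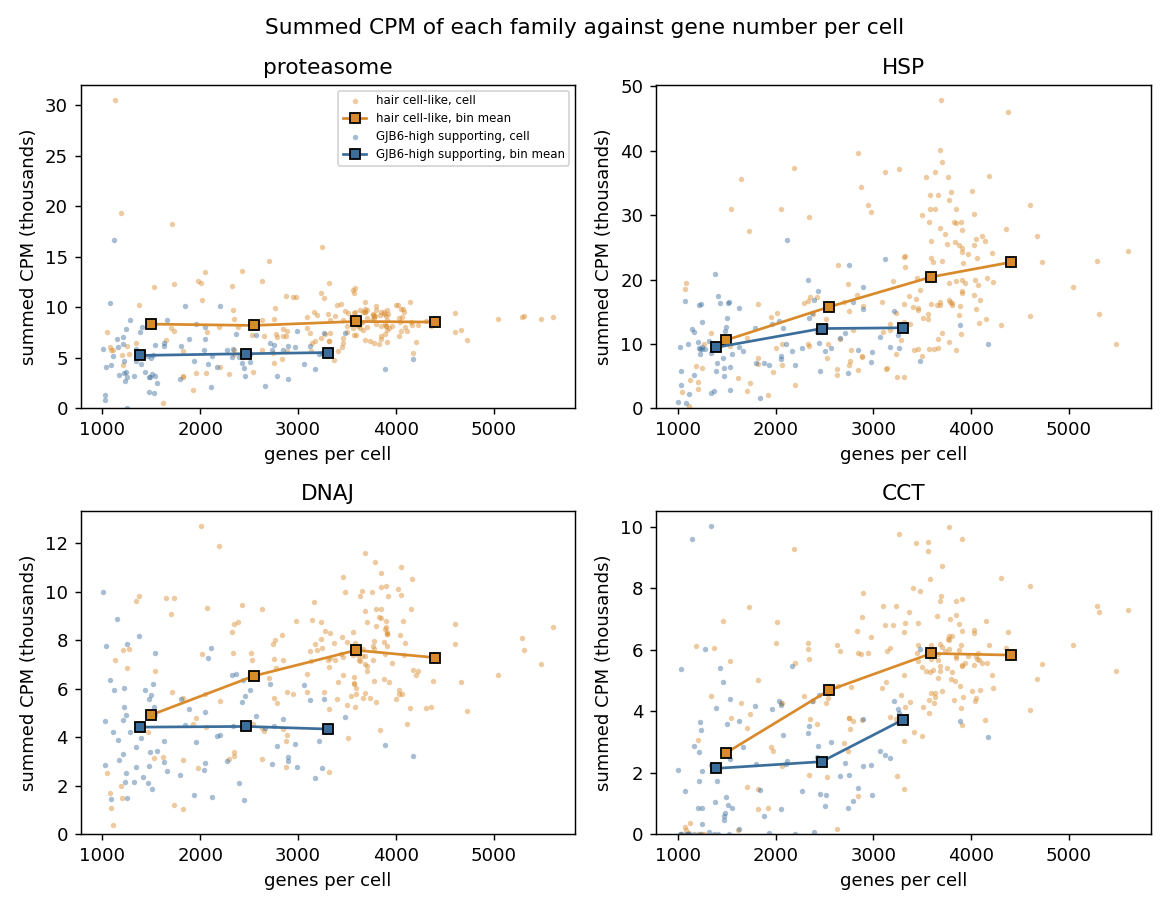
Each point is a cell, with its number of genes (x axis) and the summed level of a family in units of 1000 CPM (y axis, from 0). Squares are means of cells in steps of 1000 genes per cell, shown where a class had at least 5 cells. The proteasome lines are flat and apart, and the HSP, DNAJ and CCT lines of hair cell-like cells start near those of supporting cell-like cells and lie above them in cells with more genes.

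When cells were matched on gene number in these steps, with the same sign required in every step in place of every plate, 20 of the 100 members passed upwards, where 19.7% of all measured genes did. After matching, the count of higher members was thus close to the share among all measured genes. The 20 included 18 of the 26 that had passed before. The 8 others were CCT3, CCT6A, CCT7, DNAJA1, DNAJB14, DNAJC27, HSPA4L and PSMC6, and PSMB1 and HSPA12A passed instead. Matched median ratios were 0.75 for CCT, 0.72 for HSP, 0.56 for the proteasome and 0.03 for DNAJ genes, beside 0.04 over all measured genes. HSPA8 had a matched ratio of 0.20 and CCT7 of 0.34, while PSMA4 (2.10) and DNAJC5B (4.94) stayed near their unmatched ratios. PSME3 had the opposite sign after matching (-0.40). With matching, 8 members were lower by the fold rule, where 16.9% of all measured genes were, and HSPA5 was among them at -1.56. The highest step used for matching held 8 GJB6-high cells.

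**Figure D4:**
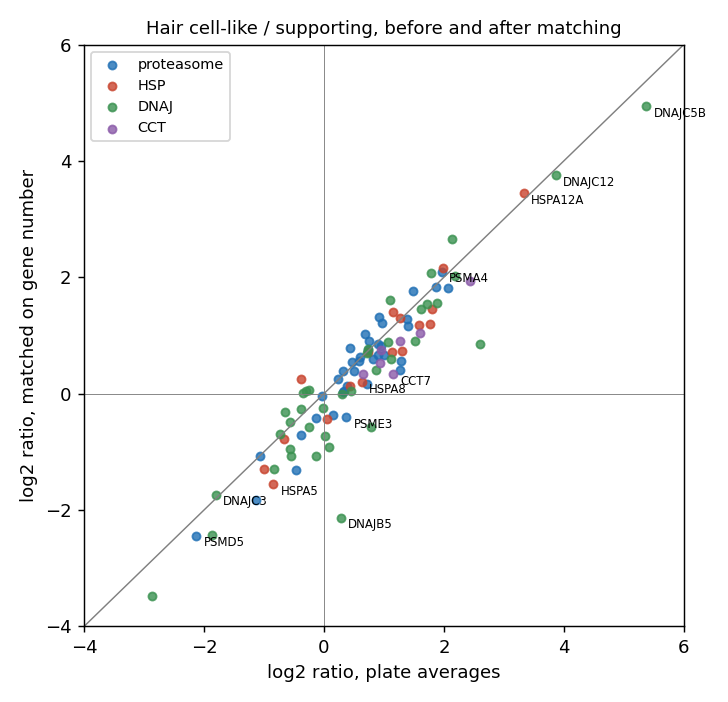
Each point is a member, with its log2 ratio of hair cell-like to GJB6-high supporting cell-like cells by plate averages (x axis) and matched on gene number (y axis). The grey diagonal marks equal values. Most HSP and CCT points lie below it, with HSPA8 going from 0.63 to 0.20 and HSPA5 from -0.84 to -1.56.

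Within hair cell-like cells, 110 OCM-high cells (at least 1000 CPM) were compared with 74 OCM-low cells, and 28 hair cell-like cells lay within 2-fold of this limit. The median number of genes was 3458 and 3421. Family sums were close. The proteasome sum was 8594 ± 780 CPM in OCM-high and 8354 ± 696 CPM in OCM-low cells, the HSP sum 18702 ± 1865 against 17841 ± 3398 CPM, the DNAJ sum 6911 ± 509 against 6944 ± 1084 CPM and the CCT sum 5344 ± 341 against 4852 ± 821 CPM. Each difference was smaller than the larger SD over plates. By the fold rule 1 member was higher, where 4.45% of all measured genes were, and 1 was lower, where 2.03% were.

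The lower member was DNAJC10, a J-domain reductase of the ER in mammals. It had 80.4, 62.6, 70.1, 69.1 and 50.6 CPM on the plates in OCM-high cells, and 188.6, 76.2, 135.6, 127.3 and 201.7 CPM in OCM-low cells, which gave a log2 ratio of -1.12. Cells at 10 CPM or more were 42.7% and 44.6% of cells, so the groups differed in the level of positive cells more than in their share. Among cells with at least 2000 genes and 100000 counts the ratio was -0.40, and without plate 6 it was -0.89. DNAJC9, a histone chaperone of the J-domain family, was the higher one, at 24.1 ± 22.7 against 8.43 ± 9.38 CPM (1.41), a difference below the SD of the OCM-high plates. Neither gene passed when cells were matched on gene number.

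In all, 9 of 100 members were higher on all 5 plates and 1 was lower, where 7.03% and 3.28% of all measured genes were. The members' shares are thus close to those of all genes. CCT7 had 606 ± 98.3 CPM in OCM-high and 401 ± 46.8 CPM in OCM-low cells (0.60), DNAJA1 had 1352 ± 163.3 against 1015 ± 82.5 CPM (0.41), and PSMB2, a core subunit, had 399 ± 95.8 against 302 ± 29.3 CPM (0.40). HSPE1 (0.31), DNAJB13 (0.29), DNAJC2 (0.79), DNAJC13 (0.56) and DNAJC30 (0.89) were also higher on all plates. HSPA12A, a distant HSPA relative, went the other way on 4 of 5 plates. Its means in OCM-high cells were 10.96, 70.95, 12.4, 10.5 and 44.1 CPM, against 194.7, 181.8, 145.8, 164.8 and 2.36 CPM in OCM-low cells. Plate 6 alone had the opposite order. Of the partner genes, the co-chaperone gene BAG2 was higher in OCM-high cells, at 260.4 ± 50.3 against 107.04 ± 36.5 CPM (1.27).

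ATOH1 was at 10 CPM or more in 51 hair cell-like cells, and 21 cells lay within 2-fold of this limit. These ATOH1-positive cells had a median of 3771 genes, against 3312 in the ATOH1-negative cells, which were all other hair cell-like cells, and 11 of the 89 GJB6-high cells also reached 10 CPM of ATOH1. The HSP sum was 21764 ± 3515 CPM in ATOH1-positive and 16938 ± 3036 CPM in ATOH1-negative cells, and was higher on every plate. The part of gene number in this difference of sums was not tested. With cells matched on gene number, the median log2 ratio of HSP genes went from 0.13 to 0.05. For all members it went from 0.04 to -0.03. These medians weigh all genes alike and do not describe the sum. Matching in this comparison left out the step under 2000 genes, which held only 3 ATOH1-positive cells. The proteasome sum was 8445 ± 495 against 8493 ± 877 CPM, the DNAJ sum 6958 ± 522 against 6916 ± 996 CPM and the CCT sum 5504 ± 123.3 against 4971 ± 648 CPM. By the fold rule 1 member was higher, where 2.40% of all measured genes were, and 0 were lower, where 4.90% were.

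The higher member was HSPA5. It had 1273, 1805, 1380.5, 2411 and 2739 CPM on plates 2 to 6 in ATOH1-positive cells, and 894, 624, 1031, 1070.5 and 940.04 CPM in ATOH1-negative cells. Every ATOH1-positive mean lay above every ATOH1-negative mean, and the log2 ratio was 1.07. The median cell was at 955 and 716 CPM, and 1 ATOH1-positive cell on plate 6 had 21825 CPM. Without that cell, an alternative chosen after seeing the data, the ratio was 0.81 and the gene no longer passed. It was 0.85 when matched on gene number, 0.99 without plate 3 and 0.92 without plate 6, each also under the rule. With ATOH1 at 50 CPM (24 cells) the HSPA5 ratio was 1.85, over the 3 plates that had at least 5 such cells. For that setting no ratio is given without the cell at 21825 CPM. Across 4 groups of cells HSPA5 was at 2150 ± 157.5 CPM in GJB6-high, 1922 ± 639 CPM in ATOH1-positive, 1019 ± 304 CPM in ATOH1-negative OCM-high and 720.03 ± 186.1 CPM in ATOH1-negative OCM-low cells. The first pair in this order, and the last pair, differed by no more than the larger SD of the pair.

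Of the 23 genes of the ER list, 2 were higher and 0 lower in ATOH1-positive cells by the fold rule. Among all measured genes 2.40% were higher and 4.90% lower. The list median was 0.15 ± 0.19 (SD of 5 plate medians), beside -0.04 over all measured genes, and 13 of the 23 had a ratio above 0. XBP1 was higher, at 594.97 ± 56.8 against 268.6 ± 57.4 CPM (1.14). So was HERPUD1, but at a low level, 3.48 ± 2.25 against 0.630 ± 0.450 CPM. The ER partners DNAJC3 (-0.23) and DNAJB11 (-1.16) were not higher. HSPA14, which acts at the ribosome in mammals, had 111.5 ± 25.3 against 61.1 ± 19.4 CPM and was higher on every plate (0.86), as were PSMC6 (0.47), PSMD13 (0.56), PSMG3 (0.68) and HSPA8 (0.24). The HSPA8 ratio changed sign, to -0.29, with ATOH1 at 50 CPM (24 cells). In all, 6 of 100 members were higher and 3 lower on all 5 plates, where 3.99% and 7.19% of all measured genes were. The 3 lower ones were core subunit genes, named after their values were seen, and none passed the fold rule. The median ratio was -0.19 over the 7 PSMA and 0.10 over the 5 PSMB genes. PSMA1 had 278.05 ± 55.9 CPM in ATOH1-positive and 401 ± 87.7 CPM in ATOH1-negative cells (-0.53), PSMA3 317 ± 66.7 against 427 ± 105.3 CPM (-0.43) and PSMB7 322 ± 65.5 against 409 ± 48.5 CPM (-0.34), each lower on all 5 plates. USP14, a deubiquitinase of the proteasome, was higher at 85.97 ± 30.1 against 41.1 ± 8.96 CPM (1.05).

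**Figure D5:**
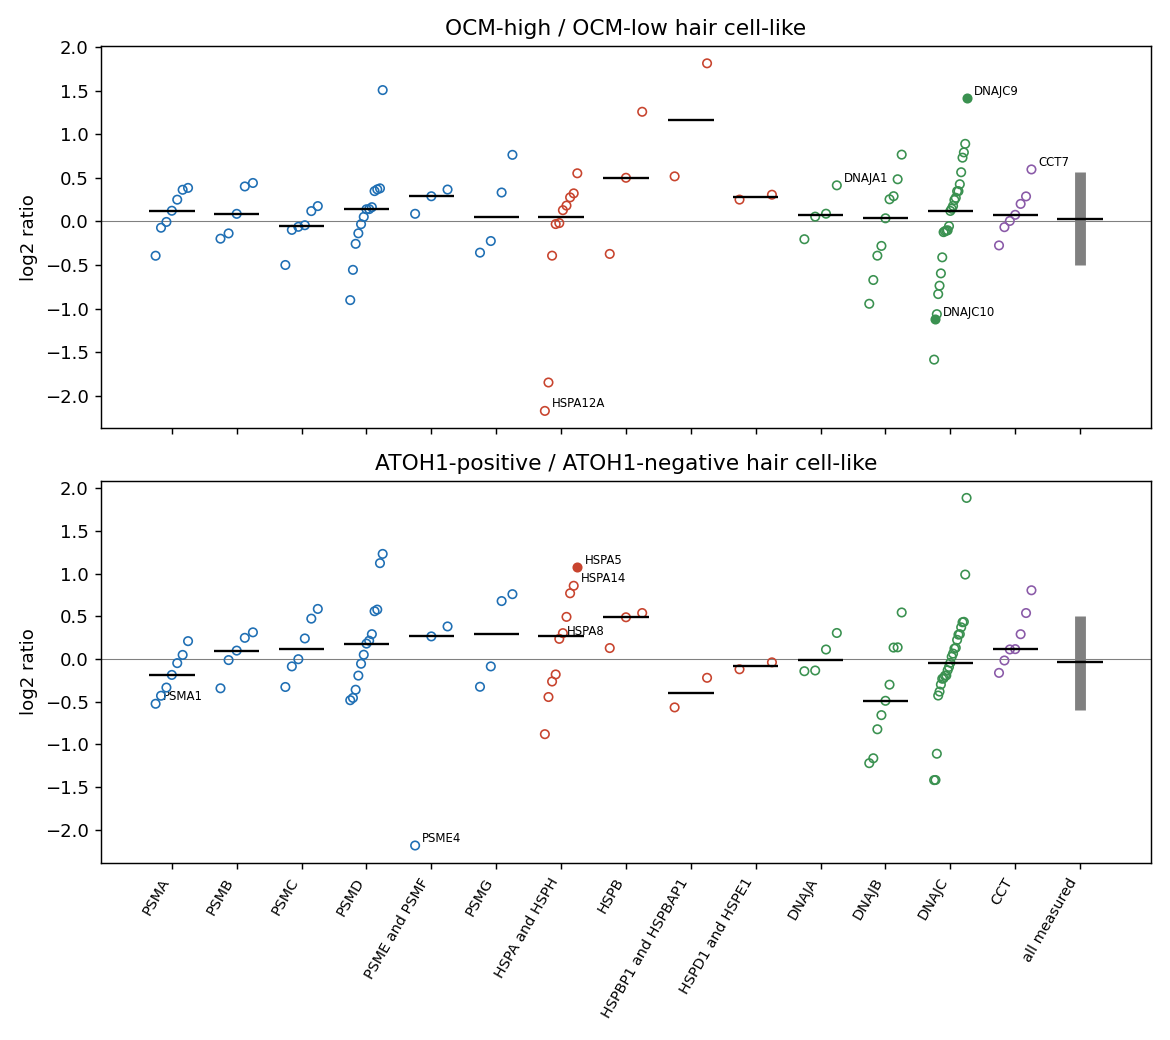
Points are the 100 members by subgroup (x axis) and log2 ratio (y axis) in OCM-high against OCM-low (top) and ATOH1-positive against ATOH1-negative hair cell-like cells (bottom). Filled points passed the fold rule, black lines are medians and grey bars the quartiles of all measured genes. The filled points are DNAJC9 and DNAJC10 above and HSPA5 below, and the other members scatter around 0.

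The families varied largely apart from each other from cell to cell. Over all hair cell-like cells, the highest Spearman's rho between family sums was 0.38 (HSP and CCT), and 0.23 within the 89 cells of the step from 3000 genes. The HSP sum followed the summed immediate early genes more closely than gene number, with rho 0.56 in hair cell-like and 0.34 in GJB6-high cells. HSPA2 (0.52), HSPA8 (0.43) and HSPB9 (0.42) had the highest values among HSP genes in hair cell-like cells. In GJB6-high cells the same genes had 0.44, 0.05 and 0.32, so the HSPA8 value was not shared by both classes. Among the other families in hair cell-like cells the CCT sum had 0.28, the proteasome sum 0.06 and the DNAJ sum 0.04. The immediate early sum itself had rho 0.39 with gene number in hair cell-like cells, and was 2374 ± 203.2 CPM in ATOH1-positive and 1263 ± 223.6 CPM in ATOH1-negative cells. Its part in the HSP levels of these cells was not tested.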

How the data were processed

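Values are expected counts per gene and cell, estimated counts that the authors deposited in 1 file per cell. STAR, RSEM and FastQC are named per the submitters' processing notes. Versions, build and annotation were not given in the sources used here. Per the labels, cDNA was amplified for 22 cycles without molecular identifiers. The binomial intervals cover the sampling of cells only, and no difference between plates, animals or sorts. The 12 symbols on 2 rows were summed. CPM were taken per cell from its summed counts. Cells were clustered on 1000 variable genes, 20 components and 8 Ward clusters. CPM were averaged within plates and over the 5 plates, and log2 ratios took a pseudocount of 1 CPM, which understates low genes. Named genes were those past the fold rule in 50% of cells of the higher side (30% within hair cell-like cells), up to 12 or 8 per direction, the member of each subgroup with most counts, and any that went against their subgroup; PSMD5, HSPA5 in the class comparison, HSPA12A and genes of the same sign on all plates were added after their values were seen. Members and lists were chosen with earlier results of these data known. Promoter and protein sequences were not used here. Python 3.11.15, numpy 2.4.6, pandas 2.3.3 and scipy 1.17.1 were used, the ratios were tested on simulated data, and no doublet caller was run on these singly sorted cells.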

Additional observations from a re-analysis of the deposited data

Results flagged for a closer look

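By Dixon's ratio over the 5 plates, which flags about 1 in 20 groups by chance, 3 of 69 groups had a plate far from the others. The median proteasome ratio of hair cell-like to GJB6-high cells was 1.134 on plate 3 and 0.446 to 0.6077 on the other plates, and plate 3 also had the highest median over all measured genes, 0.77. HSPH1 had a log2 ratio of 6.052 on plate 3 and 1.168 to 2.293 elsewhere, and its GJB6-high mean on plate 3 was 0.376 CPM over 11 cells. For OCM-high against OCM-low cells, PSMG1 had -1.664 on plate 4 and -0.1849 to 0.2641 elsewhere. The 24 cells left out by the filter on genes and counts had 2.265% of their counts in member genes, beside 3.62% in the cells kept, and a median of 818 genes.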

How the results depend on the processing

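In hair cell-like against GJB6-high cells, differences of mean log2(CPM + 1) gave medians of 2.374 (proteasome) and 4.075 (CCT). Higher members were then 61, where 27.3% of all measured genes were higher. The median of all measured genes moved from 0.12 to 0.41, and 79 of 100 members lay above that median, 70 before. Lower members were 4 with the stricter cell filter, 8 matched on gene number and 2 against all supporting cell-like cells. Without 1 plate they were 1 to 4, with 4 without plate 3 and 2 without plate 6. Of all measured genes, 16.9% were lower when matched and 9.66 to 11.29% without 1 plate. No such share is given for the stricter filter or for all supporting cell-like cells, so those counts say nothing particular about the members.

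In OCM-high against OCM-low cells, mean log2 values gave medians of 0.3683 (proteasome) and 0.3202 (CCT), 6 higher and 0 lower members. Of all measured genes, 3.25% were higher and 1.7% lower in that setting. Higher members were 0 with a pseudocount of 10, with the stricter filter or with OCM at 5000 CPM; lower members were 0 with the stricter filter, and 2 matched (HSPA12A and HSPA13, without DNAJC10) or at 5000 CPM. The HSP median was 0.05377 with the stricter filter, -0.03361 at 5000 CPM and 0.1235 to 0.2586 without 1 plate. Without 1 plate, 1 to 4 members were higher (4 without plate 4, 3 without plate 6) and 1 to 2 lower (2 without plate 2, 3 or 4). There 6.01 to 6.92% of all measured genes were higher and 2.90 to 3.64% lower, and 3.55% were lower when matched. With a pseudocount of 10 CPM, 2.81% of all measured genes were higher. No such share is given for the stricter filter or for OCM at 5000 CPM, so those counts say nothing particular about the members.

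In ATOH1-positive against ATOH1-negative cells, mean log2 values gave medians of 0.7531 (proteasome), 0.2398 (DNAJ) and 0.635 (CCT). In that setting 17 members were higher, where 6.95% of all measured genes were. The median of all measured genes moved from -0.04 to 0.19. Higher members were 0 with the stricter filter, with classes by marker shares, matched, or without the cell with most HSPA5, 2 without cells at 1000 CPM of GJB6 (chosen after seeing the data) and 3 with ATOH1 at 50 CPM (24 cells). Lower members were 1 with the stricter filter or without cells at 1000 CPM of GJB6, 2 with marker shares or thinning, 3 matched and 11 at 50 CPM, where the DNAJ median was -0.5418. Of all measured genes, 4.71% were higher and 8.07% lower when matched, and 4.32% were lower after thinning. No such share is given for the stricter filter, marker shares or the settings without some cells. Their counts say nothing particular about the members. At 50 CPM only 3 plates had 5 cells, so the same sign was required on 3 plates and the rule was easier to pass. No share of all measured genes is given for that setting, so its counts say nothing particular about the members. Without 1 plate, 0 to 2 members were higher (0 without plate 3 or 6, 2 without plate 2 or 5). Lower members were then 0 to 4 (4 without plate 4, 2 without plate 3, 1 without plate 2 or 5). Without 1 plate 3.07 to 3.83% of all measured genes were higher and 6.75 to 7.25% lower. The causes were not tested. The other family values and counts stayed within their spread or within 1.5 times. The fold rule reads the ratio within each plate and so pairs the groups by plate; no model with a plate block was fitted, since nothing was tested.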
